A study of Mus musculus with 12 samples.

Results

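The genes described here were chosen by how far their difference between conditions q2 and q1 depended on the monocyte subset. For each gene the log2 ratio of FPKM + 1 in q2 over q1 was taken in Ly6Chigh monocytes and in Ly6Clow monocytes, and the Ly6Clow ratio was subtracted from the Ly6Chigh ratio. A gene was kept where the authors' test status was OK in both tables and the FPKM reached 1 in at least one condition of each table, and it was called subset-dependent where the difference was 1 or more in size, which is a factor of 2. Of 23996 gene rows in each table, 10179 could be compared and 307 were subset-dependent. In 126 of them (1.24% of the compared genes) the ratio was larger in Ly6Chigh monocytes, and in 181 (1.78%) it was larger in Ly6Clow monocytes. The same values chose the genes, so these counts and every difference below are descriptions and carry no test.

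RNA was sequenced from 4 groups of 3 C57Bl/6 samples. These were Ly6Chigh (inflammatory) monocytes after muramyl dipeptide (MDP), Ly6Clow (patrolling) monocytes after MDP, and both subsets after placebo. MDP is a fragment of bacterial peptidoglycan that the intracellular receptor NOD2 binds. Titles of MDP samples give 16 h, while placebo samples are titled Naive and give no time. No allele is named for these mice beyond the strain. The study concerns NOD2 triggering and the passage of Ly6Chigh to Ly6Clow cells, and the comparison asks which genes differ between conditions in one subset and not, or in another direction, in the other. The authors deposited 1 table for each subset with 1 FPKM value for each condition, q2 and q1, and none for each sample, so no SD can be given and the depth is unknown. No source used here ties q2 or q1 to MDP or placebo. Every direction is therefore q2 over q1, and every difference assumes that q2 names the same treatment in both tables. With the numbering of one table turned round, 706 genes would have the larger ratio in Ly6Chigh monocytes and 703 in Ly6Clow monocytes.

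Ly6Chigh monocytes leave the bone marrow, enter inflamed tissue and can become macrophages or dendritic-like cells. Ly6Clow monocytes largely arise from them through the nuclear receptor NR4A1 and crawl along the inner wall of vessels. Both subsets can take up and present antigen, sense interferon and make complement, and the genes of these programmes differ between them at rest. The subset labels were reflected in the markers: 17 of 18 classical monocyte genes were higher in Ly6Chigh monocytes in both conditions, and all 24 patrolling monocyte genes matched were lower there in both. Ly6c2, which encodes the Ly6C antigen, stood at 1054 FPKM in q2 and 1312 FPKM in q1 of the authors' deposited Ly6Chigh table, and at 3.98 FPKM in q2 and 5.78 FPKM in q1 of the Ly6Clow table.

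The letters upstream of the genes were examined first, as a property that the choice did not use. In RefSeq promoters of GRCm38.p6, which run from 250 bases before the annotated start to 50 bases after it, the interferon response element (2 copies of GAAA with any 2 letters between them), read on both strands, was found in 20 of the 122 genes with the larger Ly6Clow ratio that had a promoter in the table (16.4%). It was found in 3 of 82 genes with the larger Ly6Chigh ratio (3.66%), in 4.02% of the 7756 compared genes with a promoter and in 3.99% of all 27025 promoters. The 20 were Aif1, Aoah, Asgr2, Bco2, Clec4b1, Dpp4, Gpr18, Gzma, Ifi205, Ifit1, Ifit3, Isg15, Lgals9, Phf11a, Phf11b, Rsad2, Saa3, Slamf8, Tlr11 and Tnfsf13b. A match describes letters and is not a bound site. Of 7 subset-dependent genes of the interferon-stimulated list with a promoter, 4 held the element and the others did not. Promoters of these 4 are shown, with the element in capitals on whichever strand it was read. They lie at chr19:34583279-34583578 on the plus strand for Ifit3, chr19:34640639-34640938 on the plus strand for Ifit1, chr12:26456403-26456702 on the minus strand for Rsad2 and chr4:156200769-156201068 on the minus strand for Isg15. Each sequence is written 5′ to 3′ toward its gene.
Ifit3: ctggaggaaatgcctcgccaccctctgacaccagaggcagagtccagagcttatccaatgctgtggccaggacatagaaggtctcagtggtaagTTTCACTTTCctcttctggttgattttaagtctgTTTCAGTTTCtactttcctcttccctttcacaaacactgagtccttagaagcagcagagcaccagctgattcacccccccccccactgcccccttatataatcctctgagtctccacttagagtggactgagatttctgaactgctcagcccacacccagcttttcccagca
Ifit1: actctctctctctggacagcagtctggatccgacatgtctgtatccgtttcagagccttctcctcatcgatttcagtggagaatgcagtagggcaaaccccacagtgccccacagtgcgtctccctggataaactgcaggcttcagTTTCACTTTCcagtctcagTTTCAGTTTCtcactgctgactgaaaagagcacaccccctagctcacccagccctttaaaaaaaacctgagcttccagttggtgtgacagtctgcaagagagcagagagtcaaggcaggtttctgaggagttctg
Rsad2: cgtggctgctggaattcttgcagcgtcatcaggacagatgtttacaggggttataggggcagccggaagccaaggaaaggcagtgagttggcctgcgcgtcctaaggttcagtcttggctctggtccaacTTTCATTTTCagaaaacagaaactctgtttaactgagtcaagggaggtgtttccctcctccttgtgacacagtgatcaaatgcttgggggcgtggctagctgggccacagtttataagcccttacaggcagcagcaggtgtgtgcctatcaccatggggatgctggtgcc
Isg15: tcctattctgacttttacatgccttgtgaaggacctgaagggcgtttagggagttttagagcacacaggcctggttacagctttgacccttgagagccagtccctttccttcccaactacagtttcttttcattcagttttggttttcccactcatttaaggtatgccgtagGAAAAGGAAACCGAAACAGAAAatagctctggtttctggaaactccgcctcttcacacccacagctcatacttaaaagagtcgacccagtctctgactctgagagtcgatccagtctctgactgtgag
The Ifit3 promoter held 2 elements, starting at positions -156 and -122 from the annotated start, and the Ifit1 promoter held 2, at -104 and -85. Rsad2 had 1, at -120. In Isg15 3 overlapping matches lay between -78 and -66.

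The same search for a kappa B site (GGGA, any 2 letters, TTCC) gave 1.22% of the genes with the larger Ly6Chigh ratio, 3.28% of those with the larger Ly6Clow ratio, 1.75% of the compared genes and 1.63% of all promoters. An AP-1 site (TGANTCA) was found in 9.76%, 13.9%, 5.97% and 8.97% of these groups in the same order. An E2F site (TTTNGCGC) was found in 2.44% of the first, in none of the 122 of the second, in 3.12% of the compared genes and in 1.57% of all promoters. The inverted CCAAT box ATTGG, a part of class II promoters, was added after the data were seen. Read on both strands, so that a direct CCAAT also counted, it was in 5 of 5 subset-dependent MHC class II genes with a promoter. It was also in 42.9% of the compared genes, so the letters alone do not set these 5 apart. Promoters of H2-Eb1, at chr17:34305617-34305916 on the plus strand, and H2-DMb1, at chr17:34152941-34153240 on the plus strand, are shown, because the 2 genes encode a presenting chain and a loading chain of the same pathway. The box is in capitals on whichever strand it was read, and the H2-Eb1 promoter holds a direct CCAAT beside ATTGG.
H2-Eb1: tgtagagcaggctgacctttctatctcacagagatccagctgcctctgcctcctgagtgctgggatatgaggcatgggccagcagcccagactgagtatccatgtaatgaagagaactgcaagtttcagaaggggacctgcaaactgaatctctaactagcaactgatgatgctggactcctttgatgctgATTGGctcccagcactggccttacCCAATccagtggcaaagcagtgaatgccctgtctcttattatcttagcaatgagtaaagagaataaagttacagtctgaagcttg
H2-DMb1: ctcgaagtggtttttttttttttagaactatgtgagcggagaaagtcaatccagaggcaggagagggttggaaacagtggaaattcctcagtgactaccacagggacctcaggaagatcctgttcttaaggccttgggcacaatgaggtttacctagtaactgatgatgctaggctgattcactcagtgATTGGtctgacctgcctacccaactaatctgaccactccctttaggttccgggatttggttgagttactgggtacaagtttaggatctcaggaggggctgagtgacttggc

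The ratios of the 2 subsets were correlated over all compared genes. Across the 10179 compared genes Pearson's r between the Ly6Chigh and the Ly6Clow ratio was 0.58 and Spearman's rho was 0.61, as a description across genes that share the same libraries. The median difference over all compared genes was 0.01. By the authors' deposited q-values under 0.05, 7.24% of the compared genes were higher and 7.76% lower in q2 in Ly6Chigh monocytes, and 14.4% were higher and 12.6% lower in Ly6Clow monocytes. Of the 307 subset-dependent genes, the authors' deposited tables called 84 higher and 108 lower in Ly6Chigh monocytes, and 106 higher and 69 lower in Ly6Clow monocytes. The tables called 45 of the 307 in opposite directions, out of 58 such genes among all those compared. They called 116 of the 307 in both subsets, 135 in one and 56 in neither (18.2%). Of the 10179 compared genes they called 1047 in both, 2183 in one and 6949 in neither (68.3%). The FPKM values behind these calls also chose the genes. Of the 56 subset-dependent genes called in neither, 28 were small RNA genes such as microRNA and snoRNA genes.

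**Figure D1:**
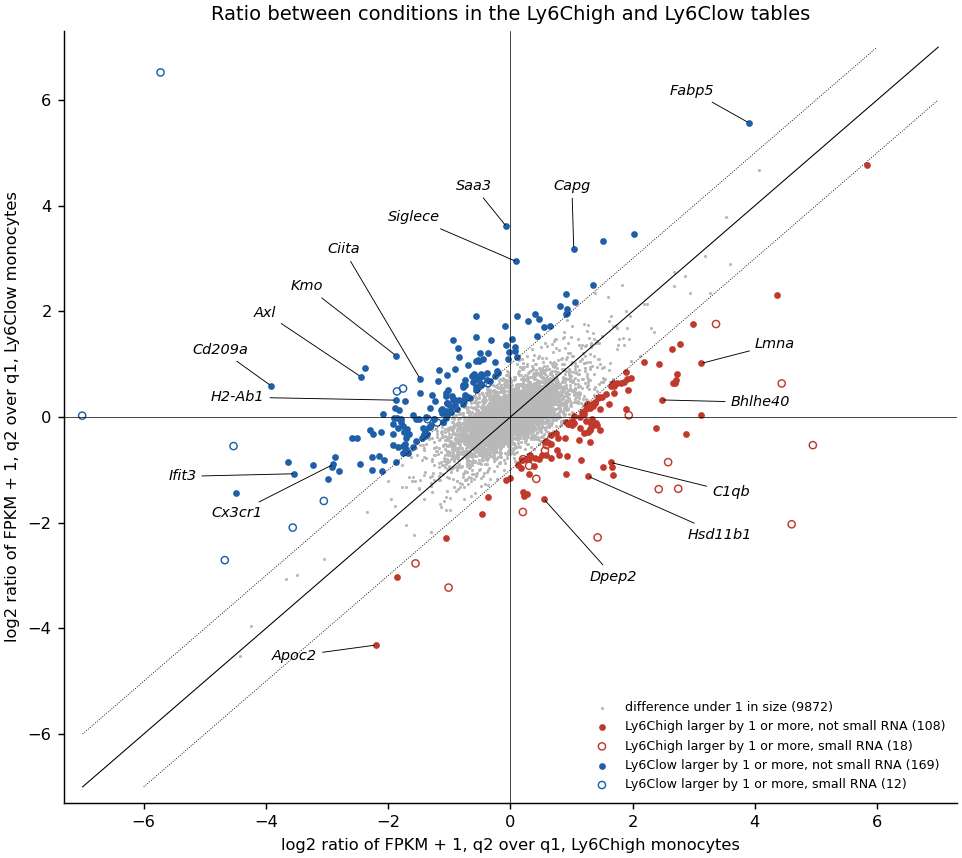
Each point is 1 of the 10179 compared genes, with its log2 ratio of FPKM + 1 in q2 over q1 in Ly6Chigh monocytes (x axis) and in Ly6Clow monocytes (y axis). The solid line marks equal ratios and the dotted lines a difference of 1; the 126 red points lie right of the band, the 181 blue points left of it, and open circles are small RNA genes.

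The genes fell into several patterns. With a ratio of 1 or more in size in one subset and under 0.5 in the other taken as a difference in that subset alone, 60 of the 181 genes with the larger Ly6Clow ratio were lower in q2 in Ly6Chigh monocytes alone, and 20 were higher in q2 in Ly6Clow monocytes alone. A further 34 had ratios of 0.5 or more in size with opposite sign, 24 of them called in opposite directions by the authors, and 41 had the same sign in both subsets with unequal size. The remaining 26 fitted none of these classes. Of the 126 genes with the larger Ly6Chigh ratio, 43 were higher in q2 in Ly6Chigh monocytes alone and 10 were lower in q2 in Ly6Clow monocytes alone. Opposite ratios were seen in 23, the same sign in 29 and a mixed pattern in 21.

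Of the 307 genes 251 are annotated as protein coding (81.8%), against 9755 of the 10179 compared genes (95.8%). Their highest FPKM had a median of 23.4, against 17.9 over all compared genes. Small RNA genes made up 9.77% of them, against 0.599% of all compared genes, and these values have large errors. The differences given here hold a pseudocount of 1 FPKM, while their standard errors (SE) belong to ratios without one. For Cd209d the difference was -3.31 with the pseudocount and -5.39 without it, and for Ccl17 -6.43 and -5.04. The standard error was taken as the log2 ratio without a pseudocount over the authors' deposited test statistic. It was assumed that the statistic is a ratio over its error, and the errors of both subsets were combined. So taken, the median error of the difference was 0.46 for the subset-dependent genes that are not small RNA genes, 10.04 for the small RNA genes and 0.38 for all compared genes. Of the 307 genes, 11 were listed at 0 in a condition and have no error.

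**Figure D2:**
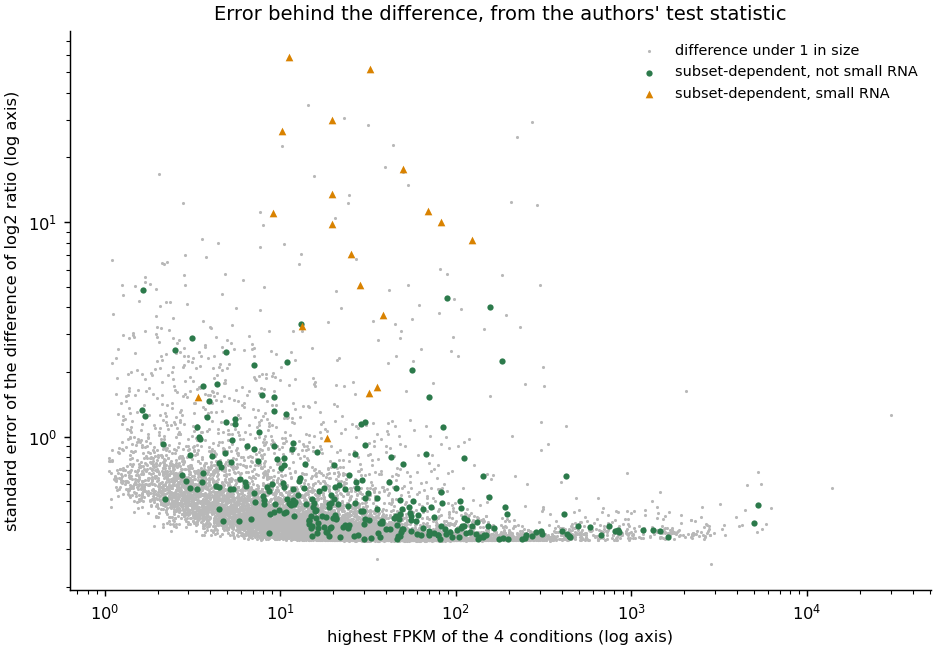
Standard error of the difference of log2 ratio without a pseudocount, from the authors' test statistics, for 10161 genes (y axis, log scale). The x axis is the highest FPKM of the 4 conditions (log scale). Green points, subset-dependent genes that are not small RNA genes, lie mostly under 1; orange triangles, small RNA genes, lie mostly above 1, and 13 subset-dependent genes with no error or one of 100 or more are not drawn.

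The Cd209 lectins, the receptor Axl and the enzyme Kmo had opposite directions in the subsets: in Ly6Chigh monocytes they were lower in q2, and in Ly6Clow monocytes they were higher. Cd209a encodes a C-type lectin related to human DC-SIGN and marks monocytes with dendritic features. In the authors' deposited tables it stood at 3.17 FPKM in q2 and 62.1 FPKM in q1 of Ly6Chigh monocytes, and at 194 FPKM in q2 and 129 FPKM in q1 of Ly6Clow monocytes. Its log2 ratios were -3.92 and 0.59, a difference of -4.51 (SE 0.44), the most negative of any compared gene that is not a small RNA gene. The authors' deposited q-values were 8.59e-04 in Ly6Chigh and 4.18e-04 in Ly6Clow monocytes, which are the lowest the tables hold. In bulk samples fewer cells of a type and less RNA per cell cannot be told apart.

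Its neighbours on chromosome 8 went the same way. Cd209d had ratios of -2.38 in Ly6Chigh and 0.92 in Ly6Clow monocytes, a difference of -3.31 (SE 1.16), and Cd209c had -0.94 and 1.45, a difference of -2.39 (SE 0.61). The 3 genes lie between 3743395 and 3946863 on chromosome 8 of mm10. Another lectin, Mgl2, was near absent from Ly6Chigh monocytes, at 0.429 FPKM in q2 and 1.10 FPKM in q1 of the authors' deposited table. It reached 112 FPKM in q2 and 38.3 FPKM in q1 in the deposited Ly6Clow table. Of 16 compared C-type lectin and alternative activation genes, 8 had the larger Ly6Clow ratio by 1 or more and none the larger Ly6Chigh ratio. The list's median difference was -1.05, against 0.01 over all compared genes. The authors' deposited tables called 2 of the 16 higher and 8 lower in Ly6Chigh monocytes, and 8 higher and 3 lower in Ly6Clow monocytes.

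The other subset-dependent genes of that list were Clec4n, Clec4a2, Clec10a and Il1rn. Clec4n, which encodes the fungal receptor dectin-2, was higher in q2 in both subsets, with ratios of 2.02 in Ly6Chigh and 3.46 in Ly6Clow monocytes. Il1rn, the natural antagonist of the interleukin 1 receptor, had ratios of -0.07 and 1.36 and was called by the authors in Ly6Clow monocytes alone (deposited q = 4.18e-04, against 0.908 in Ly6Chigh monocytes).

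Axl encodes a receptor tyrosine kinase that binds Gas6 and helps clear apoptotic cells. In the authors' deposited tables it stood at 3.34 FPKM in q2 and 22.8 FPKM in q1 of Ly6Chigh monocytes, and at 10.6 FPKM in q2 and 5.83 FPKM in q1 of Ly6Clow monocytes. The difference of log2 ratio was -3.22 (SE 0.38), and the subset with the higher level was Ly6Clow in q2 and Ly6Chigh in q1. Pros1, the only other gene of the TAM receptor and ligand list that could be compared, had a difference of -0.22 (SE 0.34). Kmo, an enzyme of tryptophan breakdown, stood at 2.66 FPKM in q2 and 12.4 FPKM in q1 of the authors' deposited Ly6Chigh table, and at 20.4 FPKM in q2 and 8.60 FPKM in q1 of the Ly6Clow table. Its difference was -3.03 (SE 0.43).

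MHC class II genes were lower in q2 in Ly6Chigh monocytes and level or higher in q2 in Ly6Clow monocytes. These genes encode the chains, the invariant chain and the loading proteins that show peptides to CD4 T cells, and Ciita is their master activator. All 10 listed genes were compared, all 10 differences were negative and 8 passed -1, with a list median of -1.85. The authors' deposited tables called 6 of the 10 lower and none higher in Ly6Chigh monocytes, and 4 higher and none lower in Ly6Clow monocytes.

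Ciita stood at 2.72 FPKM in q2 and 9.36 FPKM in q1 of the authors' deposited Ly6Chigh table, and at 19.5 FPKM in q2 and 11.4 FPKM in q1 of the Ly6Clow table. Its difference was -2.20 (SE 0.38), with the lowest q-value of the table in both subsets. H2-Ab1, a chain of the presenting molecule, stood at 93.4 FPKM in q2 and 346 FPKM in q1 of the authors' deposited Ly6Chigh table, and at 1330 FPKM in q2 and 1067 FPKM in q1 of the Ly6Clow table. Its difference was also -2.20 (SE 0.37), but the Ly6Clow side was not called (deposited q = 0.0636). The structural genes H2-Aa, H2-Eb1 and Cd74 shared this pattern, with Ly6Chigh ratios of -1.89, -1.72 and -1.47, and none was called in Ly6Clow monocytes. The Cd74 row shares its locus with another and is uncertain.

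Among the loading genes, 2 had their larger ratio on the Ly6Clow side instead. H2-DMb2 had ratios of -0.31 in Ly6Chigh and 1.45 in Ly6Clow monocytes, and H2-DMa had -0.39 and 0.71, both called by the authors in Ly6Clow monocytes alone. H2-DMb1, with -1.02 and 0.50, was called in both in opposite directions. H2-Ob and H2-Oa, which modulate loading, were within 1, at -0.65 (SE 0.39) and -0.21 (SE 0.59). The 6 subset-dependent class II genes with H2 names lie between 34122832 and 34316674 on chromosome 17 of mm10. Further rows with H2 names passed the threshold outside this interval, each with an error above its difference and a locus shared with another row: H2-L at 1.52 (SE 4.42), H2-Q8 at 1.11 (SE 1.53) and the joint row of H2-Q6 and H2-Q8 at -1.35 (SE 2.04).

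Markers of dendritic cells were summed beside the lectin and class II genes. Summed over 9 matched dendritic markers, the authors' deposited tables held 47.7 FPKM in q2 and 149 FPKM in q1 of Ly6Chigh monocytes, and 283 FPKM in q2 and 183 FPKM in q1 of Ly6Clow monocytes. That list includes Cd209a, Kmo, Flt3 and Batf3, so it overlaps the genes described. Without its 5 subset-dependent genes, the other 4 summed to 2.83 FPKM in q2 and 4.10 FPKM in q1 of the authors' deposited Ly6Chigh table, and to 16.0 FPKM in q2 and 9.60 FPKM in q1 of the Ly6Clow table. Of its 6 compared genes, 5 had the larger Ly6Clow ratio, with a median difference of -1.94. Flt3, the growth factor receptor of dendritic cells, had ratios of -3.23 and -0.92 (difference -2.31, SE 0.53), Batf3 had -0.51 and 1.06 (-1.57, SE 0.41) and Clec9a had -1.76 and -0.69 (-1.08, SE 0.82). None of the 9 was at 0 in all conditions, and 2 were under 1 FPKM in all. Their part in the result was not tested.

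NK and B cell markers were also lower in sum in q2 in Ly6Chigh monocytes and higher in sum in q2 in Ly6Clow monocytes. The 7 NK cell markers summed to 4.90 FPKM in q2 and 12.7 FPKM in q1 of the authors' deposited Ly6Chigh table, and to 39.1 FPKM in q2 and 24.4 FPKM in q1 of the Ly6Clow table. The NK receptor gene Klrk1 (-1.96, SE 0.55) and the granzyme Gzma (-2.06, SE 0.73) were subset-dependent, as was Klrd1 (-1.48, SE 0.83) outside that list. The 8 B cell markers summed to 78.4 FPKM in q2 and 95.2 FPKM in q1 of the authors' deposited Ly6Chigh table, and to 293 FPKM in q2 and 213 FPKM in q1 of the Ly6Clow table, with Cd79b at -1.06 (SE 0.36). No B cell marker was called lower in Ly6Chigh monocytes, where Cd22 was called higher, at 9.85 FPKM in q2 and 5.96 FPKM in q1 (deposited q = 0.00897). Cd79b alone stood at 92.4 FPKM in q2 and 64.9 FPKM in q1 of the authors' deposited Ly6Clow table. Their part in the class II values was not tested. The 8 T cell markers stayed between 3.75 and 6.69 FPKM in sum. The 9 erythroid and platelet markers summed to 522 FPKM in q2 and 612 FPKM in q1 of the deposited Ly6Chigh table. In the Ly6Clow table they summed to 1099 FPKM in q2 and 955 FPKM in q1. All 7 compared had a negative difference, with a median of -0.37, and none passed -1. In Ly6Clow monocytes 3 of the 7 had a positive ratio and 4 a negative one.

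Interferon-stimulated genes were lower in q2 in Ly6Chigh monocytes and less so in Ly6Clow monocytes. All 26 compared genes of the list had negative differences, with a median of -0.77, and 8 passed -1. Their median log2 ratio was -0.93 in Ly6Chigh and -0.30 in Ly6Clow monocytes. The authors' deposited tables called 24 of the 26 lower and none higher in Ly6Chigh monocytes, and 13 lower and 3 higher in Ly6Clow monocytes.

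Ifit3, whose product binds viral RNA complexes with other IFIT proteins, stood at 3.82 FPKM in q2 and 54.9 FPKM in q1 of the authors' deposited Ly6Chigh table, and at 4.52 FPKM in q2 and 10.6 FPKM in q1 of the Ly6Clow table. Its ratios were -3.54 and -1.07, a difference of -2.46 (SE 0.44). The subsets stood apart in q1 and near each other in q2. Ifit2 (-2.20, SE 0.42), the antiviral enzyme gene Rsad2 (-1.92, SE 0.42) and Ifit1 (-1.64, SE 0.48) shared that shape. Isg15, a ubiquitin-like protein, was at 63.3 FPKM in q2 and 131 FPKM in q1 of the authors' deposited Ly6Chigh table, and at 20.2 FPKM in q2 and 16.7 FPKM in q1 of the Ly6Clow table, where it was not called (deposited q = 0.212). Oasl1 and Usp18, an enzyme that removes Isg15, had differences of -1.20 (SE 0.49) and -1.11 (SE 0.41). The GTPase gene Ifi47, at -1.14 (SE 0.36), shares its locus with other rows and is uncertain. Ifi205, a DNA sensor family gene outside the list, went in opposite directions, with -0.56 in Ly6Chigh and 1.91 in Ly6Clow monocytes.

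**Figure D3:**
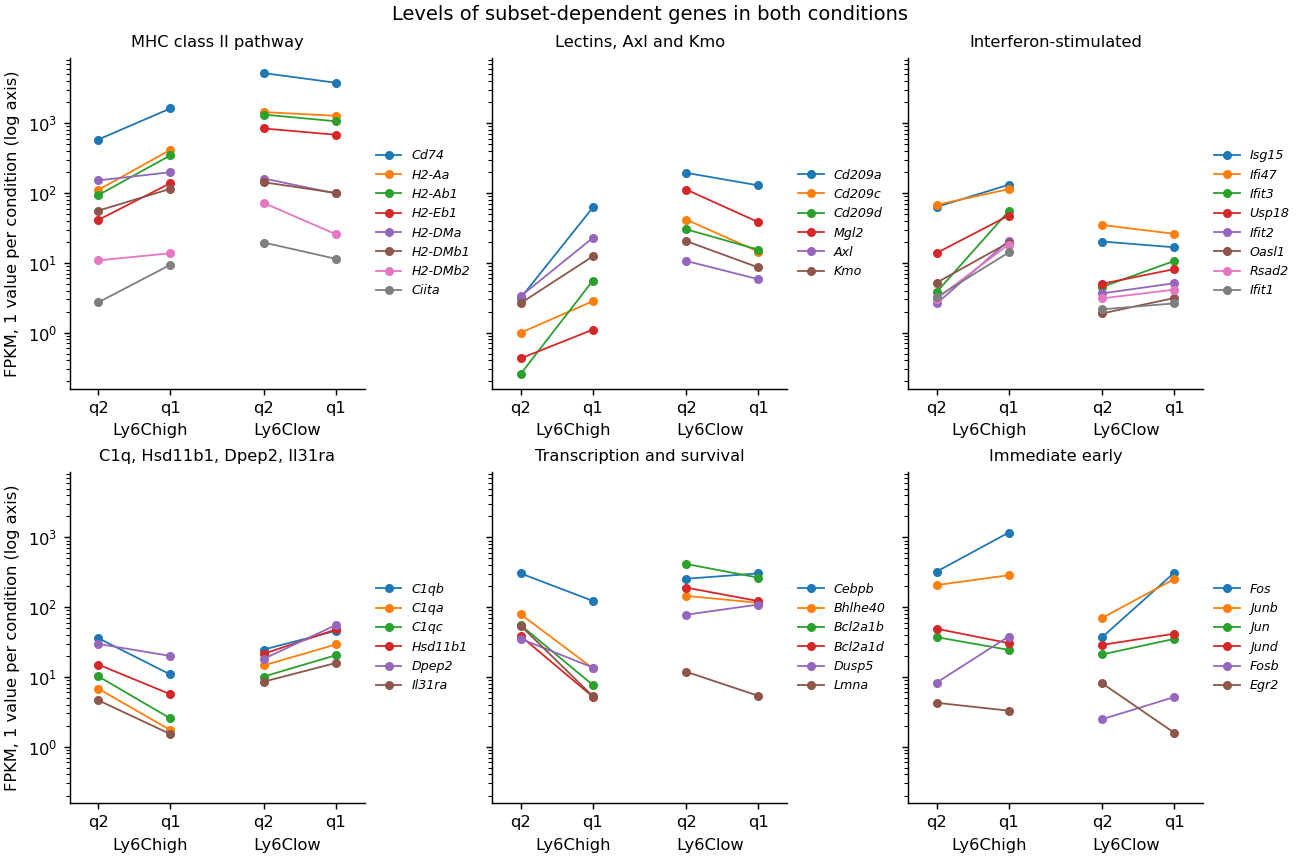
FPKM on a log axis, 1 value for each condition, in q2 and q1 of Ly6Chigh and of Ly6Clow monocytes, for genes of 6 groups; lines join the conditions of a subset and no error can be drawn. Lines of class II genes, lectins, Axl and Kmo slope up toward q1 in Ly6Chigh monocytes and mostly down in Ly6Clow monocytes, while those of C1q genes do the reverse.

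The genes of complement C1q showed the reverse. C1q opens the classical complement pathway and tags dying cells for uptake, and C1qa, C1qb and C1qc encode its chains. C1qa stood at 6.78 FPKM in q2 and 1.73 FPKM in q1 of the authors' deposited Ly6Chigh table, and at 14.6 FPKM in q2 and 29.1 FPKM in q1 of the Ly6Clow table. C1qb stood at 35.9 FPKM in q2 and 10.8 FPKM in q1 of the authors' deposited Ly6Chigh table, and at 24.7 FPKM in q2 and 45.6 FPKM in q1 of the Ly6Clow table. The differences were 2.46 (SE 0.63) for C1qa, 2.50 (SE 0.43) for C1qb and 2.60 (SE 0.58) for C1qc, with the authors' calls opposite in the subsets for all 3. They are adjacent on chromosome 4 of mm10, between 136880145 and 136898844.

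The rest of the complement list did not share this. Of its 10 compared genes 3 had the larger Ly6Chigh ratio and 1 the larger Ly6Clow ratio. That 1 was Cfb, factor B of the alternative pathway, with -0.86 in Ly6Chigh and 1.31 in Ly6Clow monocytes (-2.18, SE 0.42), although its row shares a locus with another. C1qa is also a tissue macrophage marker, and the 9 markers of that list summed to 117 FPKM in q2 and 210 FPKM in q1 of the authors' deposited Ly6Chigh table, and to 149 FPKM in q2 and 298 FPKM in q1 of the Ly6Clow table. Among the 5 compared, 4 were called lower in q2 in each subset, but not the same 4. C1qa was the 1 called higher in q2 in Ly6Chigh monocytes. In Ly6Clow monocytes C1qa was among the 4 called lower, and Mrc1 was not called (deposited q = 0.228).

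In all, 23 genes had ratios of 0.5 or more in size that were positive in Ly6Chigh and negative in Ly6Clow monocytes, 10 of them called in opposite directions by the authors, and 8 are small RNA genes. Beside the C1q genes they include Jun and Jund of the immediate early list, Hsd11b1, Dpep2, Il31ra and G0s2. Hsd11b1, which regenerates active glucocorticoid, stood at 15 FPKM in q2 and 5.65 FPKM in q1 of the authors' deposited Ly6Chigh table, and at 21.4 FPKM in q2 and 47.8 FPKM in q1 of the Ly6Clow table (difference 2.39, SE 0.44). Dpep2, a dipeptidase that acts on leukotrienes, had ratios of 0.55 and -1.55 (2.10, SE 0.36). Il31ra, a receptor chain for interleukin 31, had 1.16 and -0.82 (1.97, SE 0.45). G0s2, an inhibitor of fat breakdown next to Hsd11b1 on chromosome 1, had 0.92 and -1.08 (2.0, SE 0.74), with the Ly6Chigh side not called (deposited q = 0.0607). In q1 all 4 were higher in Ly6Clow monocytes.

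A second set was higher in q2 in Ly6Chigh monocytes, with a smaller ratio of the same sign or none in Ly6Clow monocytes. Bhlhe40, a transcriptional repressor, stood at 78.6 FPKM in q2 and 13.3 FPKM in q1 of the authors' deposited Ly6Chigh table, and at 145 FPKM in q2 and 115 FPKM in q1 of the Ly6Clow table. Its difference was 2.15 (SE 0.35), and it shares its locus with another row. Cebpb, a factor that patrolling monocytes need to survive, stood at 303 FPKM in q2 and 123 FPKM in q1 of the authors' deposited Ly6Chigh table, and at 255 FPKM in q2 and 304 FPKM in q1 of the Ly6Clow table (1.55, SE 0.37). The q2 level in Ly6Chigh monocytes was thus close to the q1 level in Ly6Clow monocytes.

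Of 22 compared monocyte transcription factors, 4 had the larger Ly6Chigh ratio (Bhlhe40, Cebpb, Hes1 and Cebpd) and 2 the larger Ly6Clow ratio. Those 2 were Batf3 and Irf4, factors of dendritic cell development, and Irf4 had -0.74 in Ly6Chigh and 0.70 in Ly6Clow monocytes (-1.44, SE 0.34). The list's median difference was 0.26. Hes1, a Notch target, was level in Ly6Chigh monocytes, at 5.68 FPKM in q2 and 5.70 FPKM in q1 of the authors' deposited table. It was lower in q2 in Ly6Clow monocytes, at 21.5 FPKM in q2 and 49.2 FPKM in q1 of the deposited table.

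Among 23 compared patrolling monocyte genes, 4 had the larger Ly6Chigh ratio and 1 the larger Ly6Clow ratio, with a median difference of 0.06. The 4 were Spn, which encodes CD43 (1.04, SE 0.38), Dusp16 (1.08, SE 0.39), Hes1 (1.15, SE 0.46) and Bcl2a1a (1.39, SE 0.52). The exception was Cx3cr1, the fractalkine receptor that keeps patrolling monocytes alive. It stood at 22.6 FPKM in q2 and 175 FPKM in q1 of the authors' deposited Ly6Chigh table, and at 134 FPKM in q2 and 250 FPKM in q1 of the Ly6Clow table. It was called lower in both, with ratios of -2.90 and -0.90 (-2.0, SE 0.35).

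The survival genes Bcl2a1b and Bcl2a1d accompanied Bcl2a1a, with differences of 2.04 (SE 0.44) and 2.02 (SE 0.47), but the 3 are near-identical copies and their reads cannot be assigned with certainty. Lmna, which encodes nuclear lamins, stood at 53.9 FPKM in q2 and 5.30 FPKM in q1 of the authors' deposited Ly6Chigh table, and at 11.8 FPKM in q2 and 5.36 FPKM in q1 of the Ly6Clow table. The q1 levels matched and the q2 levels did not (2.11, SE 0.47). Dusp5, a phosphatase of ERK, had 1.30 and -0.48 and was called in opposite directions (1.78, SE 0.38).

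Classical monocyte genes were mostly within the band. Of 16 compared, 2 had the larger Ly6Clow ratio and none the larger Ly6Chigh ratio, with a median difference of -0.11. Plac8 stood at 3308 FPKM in q2 and 4988 FPKM in q1 of the authors' deposited Ly6Chigh table, and at 2483 FPKM in q2 and 1424 FPKM in q1 of the Ly6Clow table (-1.39, SE 0.40). Cd177, a surface protein shared with neutrophils, was higher in Ly6Chigh monocytes in both conditions and lower in q2 in both subsets (-1.25, SE 0.66), but its direction rests on the pseudocount, since with 0.1 FPKM the difference was 0.01. Its Ly6Clow levels were 0.212 FPKM in q2 and 1.44 FPKM in q1 of the authors' deposited table.

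Several genes were higher in q2 in Ly6Clow monocytes with no or less difference in Ly6Chigh monocytes. Saa3, an acute phase protein, stood at 68.3 FPKM in q2 and 71.8 FPKM in q1 of the authors' deposited Ly6Chigh table, and at 105 FPKM in q2 and 7.71 FPKM in q1 of the Ly6Clow table. Its difference was -3.68 (SE 0.50). Siglece, an inhibitory sialic acid receptor, stood at 26.7 FPKM in q2 and 25.0 FPKM in q1 of the authors' deposited Ly6Chigh table, and at 121 FPKM in q2 and 14.9 FPKM in q1 of the Ly6Clow table. Its difference was -2.85 (SE 0.36), and its neighbour Cd33, a receptor of the same family, had -1.81 (SE 0.43). For both, the Ly6Chigh ratio was near 0 and was not called.

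Capg, an actin-capping protein, was higher in q2 in both subsets, with ratios of 1.04 in Ly6Chigh and 3.18 in Ly6Clow monocytes (-2.15, SE 0.36). Fabp5, a fatty acid carrier, stood at 486 FPKM in q2 and 31.6 FPKM in q1 of the authors' deposited Ly6Chigh table, and at 742 FPKM in q2 and 14.7 FPKM in q1 of the Ly6Clow table. Both subsets went the same way and the ratios differed by -1.67 (SE 0.38). Apoc2, an activator of lipoprotein lipase, was lower in q2 in both subsets and more so in Ly6Clow monocytes, with ratios of -2.20 and -4.32 (2.12, SE 0.38). Of 21 compared LXR and lipid handling genes, 2 had the larger Ly6Chigh ratio (Apoc2 and Trem2) and 2 the larger Ly6Clow ratio (Fabp5 and Lpl), with a median of -0.12.

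Genes lower in q2 in both subsets but more in Ly6Chigh monocytes included the membrane proteins Tmem176b and Tmem176a. Tmem176b stood at 31.1 FPKM in q2 and 400 FPKM in q1 of the authors' deposited Ly6Chigh table, and at 63.8 FPKM in q2 and 116 FPKM in q1 of the Ly6Clow table (-2.78, SE 0.36). Tmem176a had -1.96 (SE 0.38). Hpgd, which inactivates prostaglandins, had -2.81 and -1.02 (-1.79, SE 0.35). Il1b and Il18 encode the interleukins matured by inflammasomes. Il1b had ratios of -1.88 and -0.86 (-1.02, SE 0.42). Il18 was lower in q2 in Ly6Chigh monocytes and level in Ly6Clow monocytes, with ratios of -1.39 and -0.01 (-1.38, SE 0.46). The Il1b row shares its locus with another. These were the 2 subset-dependent genes of 12 compared cytokine and inflammasome genes.

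Immediate early genes, the first to respond to a stimulus, had a median difference of 0.57, against 0.54 for the complement list and 0.01 over all compared genes. With no FPKM minimum the medians were 0.57 and 0.60. Of 16 compared, 5 had the larger Ly6Chigh ratio and 2 the larger Ly6Clow ratio. The authors' deposited tables called 3 higher and 8 lower in Ly6Chigh monocytes, and 1 higher and 13 lower in Ly6Clow monocytes. Fos stood at 323 FPKM in q2 and 1168 FPKM in q1 of the authors' deposited Ly6Chigh table, and at 37.1 FPKM in q2 and 310 FPKM in q1 of the Ly6Clow table (1.18, SE 0.37). Jun had 0.58 and -0.71 (1.30, SE 0.34) and Jund 0.67 and -0.51 (1.18, SE 0.36), both called in opposite directions. Fosb and Egr2 went against the list, at -1.25 (SE 0.39) and -1.52 (SE 0.49).

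S100a8, a calcium-binding alarmin, stood at 422 FPKM in q2 and 62.9 FPKM in q1 of the authors' deposited Ly6Chigh table, and at 9.59 FPKM in q2 and 5.03 FPKM in q1 of the Ly6Clow table (1.91, SE 0.66). It is also a neutrophil marker. The 8 matched neutrophil markers, S100a8 among them, summed to 556 FPKM in q2 and 312 FPKM in q1 of the authors' deposited Ly6Chigh table, and to 92.2 FPKM in q2 and 148 FPKM in q1 of the Ly6Clow table. Without S100a8 and Retnlg, the 2 subset-dependent markers, the other 6 summed to 131 FPKM in q2 and 247 FPKM in q1 of the authors' deposited Ly6Chigh table, and to 66.4 FPKM in q2 and 138 FPKM in q1 of the Ly6Clow table. Csf3r, another marker, had a difference of -0.02 (SE 0.34) and was lower in q2 in both subsets. Their part in the S100a8 value was not tested.

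Among surface receptors, Trem1, which amplifies inflammatory signals, stood at 12.5 FPKM in q2 and 4.08 FPKM in q1 of the authors' deposited Ly6Chigh table, and at 33.7 FPKM in q2 and 36.8 FPKM in q1 of the Ly6Clow table (1.53, SE 0.39). Its neighbour Trem2, a lipid sensor, was lower in q2 in both subsets (1.23, SE 0.50). Those were the 2 subset-dependent genes of 20 compared phagocytic and pattern receptors. Of 9 compared costimulation genes, the checkpoint ligand Cd274 had the larger Ly6Chigh ratio (1.09, SE 0.38), and Cd80 (-1.15, SE 0.47) and the B cell survival factor Tnfsf13b (-1.57, SE 0.57) the larger Ly6Clow ratio.

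Other lists held few or no subset-dependent genes. Of 21 compared cell cycle genes, 1 was, the microtubule regulator Stmn1 (2.02, SE 0.58), and the list's median difference was 0.35. The difference was positive for 16 of the 21, against 5274 of the 10179 compared genes. The authors' deposited tables called 12 of the 21 higher and none lower in Ly6Chigh monocytes, and 9 higher and 2 lower in Ly6Clow monocytes. Of 19 cholesterol synthesis genes, 1 was, Mvd (-1.04, SE 0.35), and the list's median ratios were 1.20 in Ly6Chigh and 1.36 in Ly6Clow monocytes. None of 19 NOD2 and NF-kB genes, 14 glycolysis genes, 18 ribosome biogenesis genes or 6 heat shock genes was subset-dependent.

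**Figure D4:**
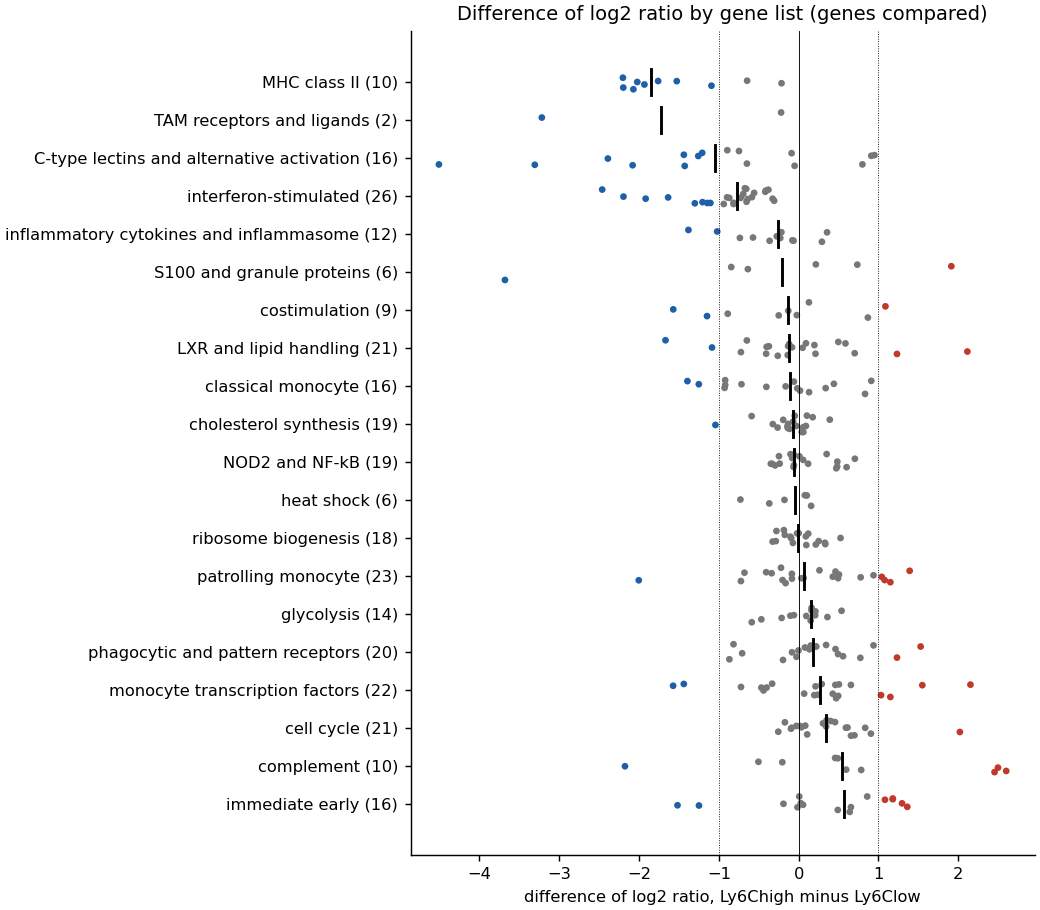
Difference of log2 ratio, Ly6Chigh minus Ly6Clow (x axis), of each compared gene in 20 lists, with the number compared in brackets; bars are list medians and dotted lines mark -1 and 1. Class II, lectin and interferon genes lie left of 0, with medians of -1.85, -1.05 and -0.77, and immediate early and complement genes have medians of 0.57 and 0.54.

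The gap between the subsets in q2 minus that in q1 is the difference that chose the genes, so the levels that follow describe the chosen genes and add no further result. On the FPKM + 1 scale, subset-dependent genes at least 2-fold apart between the subsets numbered 163 in q2 (53.1%) and 176 in q1 (57.3%), against 7.87% in q2 and 9.58% in q1 of all compared genes. The gap was wider in q2 for 141 and narrower for 166, and the subset with the higher level was another one for 134. Among the 126 genes with the larger Ly6Chigh ratio, Ly6Clow monocytes were at least 2-fold higher for 27 in q2 and 63 in q1. Among the 181 with the larger Ly6Clow ratio, Ly6Chigh monocytes were at least 2-fold higher for 20 in q2 and 81 in q1, and Ly6Clow monocytes for 73 in q2 and 26 in q1.

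Cd209a and the class II genes were further apart in q2, where Ly6Clow monocytes held 46.8 times the Ly6Chigh level of Cd209a, against 2.06 times in q1. For H2-Ab1 the factors were 14.1 in q2 and 3.07 in q1. Genes that drew together were Bcl2a1b, with Ly6Clow monocytes 7.44 times higher in q2 and 30.6 times in q1, C1qa, with 2.01 and 11.0 times, and Bhlhe40, with 1.83 and 8.13 times. Whether the 2 tables were normalised together was not given in the sources used here, and levels set across them carry that limit.

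**Figure D5:**
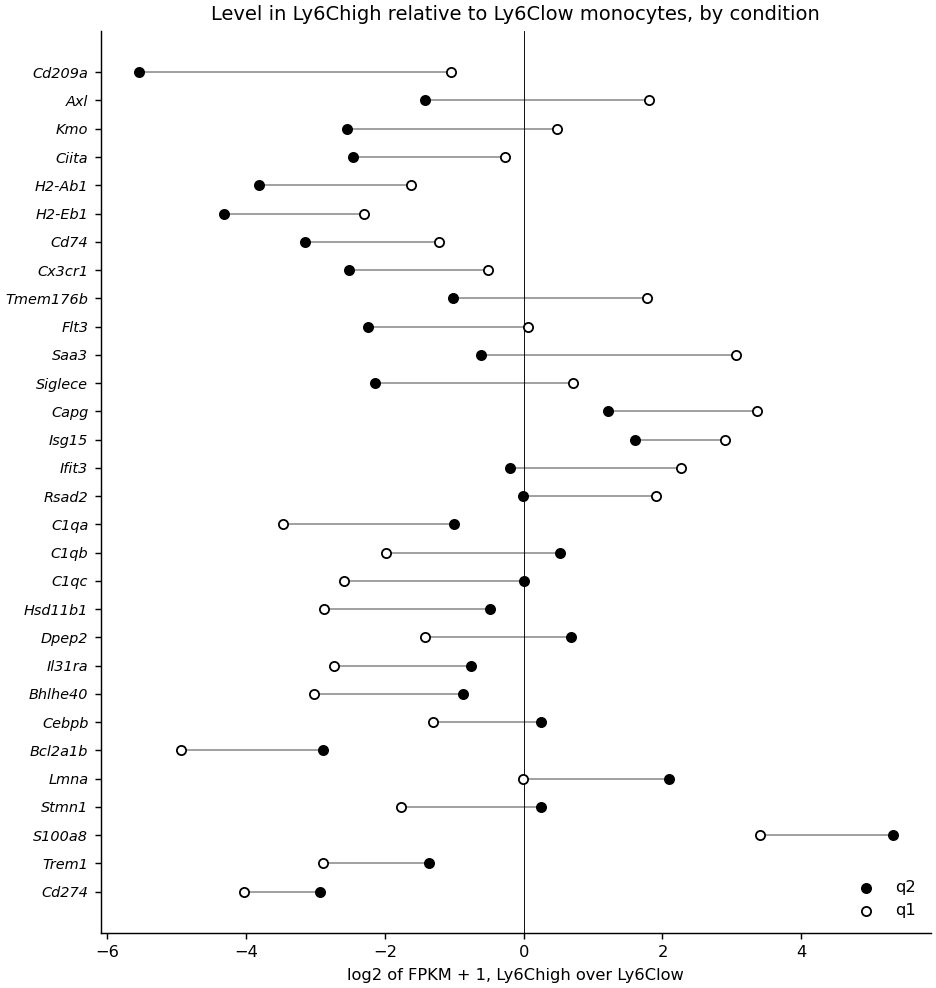
Level in Ly6Chigh relative to Ly6Clow monocytes as log2 of FPKM + 1 (x axis) for 30 subset-dependent genes, in q2 (filled) and q1 (open). Points left of 0 are higher in Ly6Clow monocytes; Axl and Tmem176b cross 0 between the conditions, and C1qc lies near 0 in q2.

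Some of the genes are neighbours. With neighbours taken as genes of the same direction within 200 kb, 61 of the 181 genes with the larger Ly6Clow ratio stood in 23 groups and 21 of the 126 with the larger Ly6Chigh ratio in 10. Beside the class II, Cd209 and C1q groups, these included 5 genes around Ifit2, Ifit3 and Ifit1 on chromosome 19, 4 around Tmem176b and Gimap4 on chromosome 6, and the lectins Clec4b1, Clec4a2 and Clec4n on chromosome 6. The share in such groups was not taken over all compared genes, so whether these numbers are high was not tested. Rows listed at the same locus, such as Mir3535 and Snora75, were also counted as neighbours. Where rows share a locus, reads may have been divided between them: 25.4% of the subset-dependent genes do, against 22.6% of all compared genes.

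By the rule of the most extreme differences among genes that reach 10 FPKM, the 15 most positive were Snora44, Mir8112, Mir8098, Snora62, Mir8097, Mir8091, Scand1, Atp6v0c, C1qc, Erdr1, C1qb, C1qa, Hsd11b1, Mir6236 and Bhlhe40, of which 7 are small RNA genes. The 15 most negative were Mir7050, Mir7115, Cd209a, Snora75, Saa3, Cd209d, Axl, the joint row of Rps27 and Rps27rt, Kmo, Siglece, Tmem176b, Ifi205, Ifit3, Cd209c and Flt3, of which 3 are small RNA genes. The widest value, -12.25 for Mir7050, comes from conditions listed at 0 in each table. Scand1 (3.19, SE 1.11) and Atp6v0c (3.07, SE 2.26) share their loci with other rows, and the joint Rps27 row had an error above its difference (-3.04, SE 4.0). Erdr1, at 48.3 FPKM in q2 and 8.49 FPKM in q1 of the authors' deposited Ly6Chigh table, and at 18.8 FPKM in q2 and 21.8 FPKM in q1 of the Ly6Clow table, had 2.58 (SE 0.51).

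At the threshold itself, the genes just inside on the Ly6Chigh side were 2010016I18Rik at 1.0, Snora16a at 1.006 and Akr1b3 at 1.007, and those just outside were Tssk6 at 0.996, Osgin2 at 0.991 and E030030I06Rik at 0.990. On the Ly6Clow side 0610040J01Rik at -1.004, Vnn3 at -1.007 and Mir546 at -1.008 were inside, and Neurl3 at -0.991, Klra2 at -0.990 and Ppfia4 at -0.989 outside. The FPKM minimum left out 578 genes that reached it in one table alone, of which 16 had a difference of 1 or more and 17 of -1 or less. Ccl17, a chemokine that draws T cells, was among them. It stood at 0.718 FPKM in q2 and 0.110 FPKM in q1 of the authors' deposited Ly6Chigh table, and at 347 FPKM in q2 and 1.61 FPKM in q1 of the Ly6Clow table (-6.43, SE 1.95). The interferon-induced chemokine Cxcl10 (-2.62, SE 1.0), whose row shares its locus with others, and the lectin Cd209b (-1.98, SE 1.31) were left out likewise. Among those left out with the larger Ly6Chigh ratio were Tfec (2.01, SE 0.96), C3ar1 (1.76, SE 0.55) and Ccnb2 (1.68, SE 0.81).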

How the data were processed

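RNA-seq of Ly6Chigh and Ly6Clow monocytes of C57Bl/6 mice was used, 12 samples in 4 groups of 3. The authors used Trimmomatic 0.33, TopHat2 2.0.14, Bowtie2 2.2.5, Cufflinks 2.21, Cuffdiff 2.21 and the build mm10, per the submitters' processing notes, which give no settings. The deposited tables hold FPKM (expression per transcript length and library size), 1 value for each condition and none for each sample, per the file headers. Per the file headers, the deposited statistic is a score of q2 against q1. The authors' p-value and q-value, deposited beside it, belong to their comparison of the conditions. How the statistic is built was not given in the sources used here, and the deposited log2 column was not used.

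Tables were joined on gene and locus (23989 rows joined, 11401 with status OK in both). The log2 ratio used a pseudocount of 1 FPKM, which understates the ratio of low genes. The error was taken as the log2 ratio without a pseudocount over the authors' deposited statistic, so it belongs to another measure than the printed difference. As a check, p-values from a normal law of that statistic had a median of 1.47 times the deposited p-value in the Ly6Chigh table and 1.97 times in the Ly6Clow table. With the lowest and highest left aside, this factor ran from 1.02 to 8.34 in the Ly6Chigh table and from 1.04 to 23.9 in the Ly6Clow table. The check used 9192 and 8407 genes and left out the smallest deposited p-values. It therefore does not cover the strongest calls, and the errors remain approximate. Calls are the authors' deposited q-value under 0.05. No test was run: the same values chose the genes, and no value of a single sample was analysed here, so replicate numbers could pair nothing. The depth per sample is unknown. Whether samples came from separate animals was not given in the sources used here. What spread the authors' p-values measure was not given either, and they describe these samples alone.

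The genes and lists were chosen with earlier results of these data known. Genes named are the 15 most positive and 15 most negative differences among those reaching 10 FPKM, the markers given for the comparison, list members past the threshold, the 3 genes on each side of it, and genes of opposite direction; others were chosen after their values were seen. The plan was written for MDP against placebo, and q2 over q1 was used because no source ties the conditions to treatments. The count of subset-dependent genes was recomputed under other pseudocounts, minimums, thresholds, scalings and numbering. Promoter sequences are RefSeq's, build GRCm38.p6; coordinates of genes are the files', on mm10. The count was tested on simulated data, as a check of the calculation alone. How reliable the count is for the measured FPKM was not tested. Python 3.11.15, pandas 2.3.3, NumPy 2.4.6, SciPy 1.17.1 and Matplotlib 3.10.9 were used.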

Additional observations from a re-analysis of the deposited data

How the results depend on the processing

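The counts of 126 genes with the larger Ly6Chigh ratio and 181 with the larger Ly6Clow ratio depend on the pseudocount, the minimum and the threshold. A pseudocount of 0.1 FPKM gave 205 for Ly6Chigh, and 5 FPKM gave 57 and 88. A minimum of 5 FPKM gave 82 and 119. A threshold of 2 gave 26 and 31, and of 0.5 gave 553 and 703. Turning the numbering of one table round gave 706 and 703. No minimum, a minimum in either table, centring, an authors' q-value under 0.05 in one table and, chosen after seeing the data, leaving out small RNA genes or shared loci and rescaling each condition to the same sum left both counts within 1.5 times; the rescaling moved the median difference of all genes to 0.06.

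Among 93 named genes, a pseudocount of 0.1 FPKM turned Cd177 to 0.01. The opposite numbering turned Aoah to 0.50, Apoc2 to -6.52, Batf3 to 0.55, Cd209c to 0.52, Cd80 to 3.85, Cebpd to -0.40, Cfb to 0.45, Clec4a2 to 0.46, Clec4n to 5.48, Dpep2 to -1.01, Egr2 to 2.11, Fabp5 to 9.47, Fos to -4.88, G0s2 to -0.17, H2-DMa to 0.32 and H2-DMb2 to 1.14. It also turned Hes1 to -1.16, Ifi205 to 1.35, Il1rn to 1.29, Jun to -0.13, Junb to -2.30, Lpl to 0.12, Mgl2 to 0.96, Mir6236 to -4.24, Mir7050 to 0.80, Mir8097 to -0.85, Mvd to 2.86, Plac8 to 0.21, Retnlg to 1.96, Saa3 to 3.54, Siglece to 3.04 and Trem2 to -3.36. With 5 FPKM, 73 of the 93 remained 1 or more in size, and with the opposite numbering 61 did. All differences of the interferon and class II lists stayed negative under every alternative but the opposite numbering, where 25 of 26 and 8 of 10 were negative.

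No paired analysis was possible because the deposited columns carry no replicate numbers. For the same reason no replicate was left out in turn. The depth is unknown, so no floor can be set for values at 0.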

Other observations

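Some subset-dependent genes outside the lists, chosen after their values were seen, share a shape. The calcium-binding chaperone of the endoplasmic reticulum Calr stood at 811 FPKM in q2 and 328 FPKM in q1 of the authors' deposited Ly6Chigh table, and at 506 FPKM in q2 and 452 FPKM in q1 of the Ly6Clow table, a difference of log2 ratio of 1.14 (SE 0.36). Sdf2l1 and Creld2, which encode proteins of the same compartment, had 1.14 (SE 0.35) and 1.03 (SE 0.37). For Calr and Creld2 the Ly6Chigh level was above the Ly6Clow level in q2 and below it in q1. The growth regulators Myc (1.16, SE 0.49) and Ddit4 (1.15, SE 0.34), the glucocorticoid receptor cochaperone Fkbp5 (1.16, SE 0.39) and the membrane protein Emp1 (1.24, SE 0.45) also had the larger Ly6Chigh ratio.

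Genes with a difference in Ly6Clow monocytes alone were fewer. Scnn1a, a subunit of an epithelial sodium channel, stood at 3.82 FPKM in q2 and 3.01 FPKM in q1 of the authors' deposited Ly6Chigh table, and at 15.4 FPKM in q2 and 44.1 FPKM in q1 of the Ly6Clow table (1.73, SE 0.42). Gadd45g, a stress response gene, had ratios of 0.22 in Ly6Chigh and -1.50 in Ly6Clow monocytes (1.73, SE 0.62). Ms4a6d, a membrane protein of macrophages, had -0.49 and 1.20 (-1.69, SE 0.34), and Ms4a8a of the same family had -1.04 and 0.80 and was called in opposite directions by the authors (-1.84, SE 0.42).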
